A study of Rattus norvegicus with 9 samples.

Results

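Gal, Npy, Vip, Adcyap1, Nts, Crh and Cck encode the precursors of galanin, neuropeptide Y, vasoactive intestinal peptide, pituitary adenylate cyclase-activating polypeptide (PACAP), neurotensin, corticotropin-releasing hormone and cholecystokinin. These 7 genes were taken by their symbols from a table of 20194 rat genes, and all 7 were found (NCBI gene IDs 29141, 24604, 117064, 24166, 299757, 81648 and 25298, in the same order). RNA-Seq was performed on the dorsal root ganglion (DRG) of adult male Sprague Dawley rats in 3 groups of 3 samples each. Sham rats were operated without nerve injury. SNI rats received spared nerve injury, in which the tibial and common peroneal branches of the sciatic nerve were ligated and cut and the sural branch was left intact. SNI + G15 rats had the same injury and then G15, an antagonist of the G protein-coupled oestrogen receptor GPER. It was given through an intrathecal catheter placed on day 5 after SNI, for 24 h. The labels name 2% DMSO as its solvent, while the methods and figure legends of the study give other percentages. The labels mark the sham and SNI libraries as the controls of the G15 group and give all 9 libraries the same text on catheter and DMSO, without saying what the sham and SNI rats themselves received. Whether they had a catheter and vehicle is therefore not settled here. A DRG library pools all cells of the ganglion, and neurons whose axons were cut lie beside neurons of the spared branch. Fewer cells that express a gene and less RNA of it per cell cannot be told apart.

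Neuropeptides are made as larger precursors, cut by convertases in the secretory pathway, stored in dense-core vesicles and released to act mostly on G protein-coupled receptors. Cutting a peripheral nerve is known to change the peptides that its sensory neurons make: galanin, neuropeptide Y, vasoactive intestinal peptide and PACAP are the classical peptides that appear or increase in axotomized neurons, whereas substance P and CGRP belong to the uninjured nociceptor. Galanin, PACAP and vasoactive intestinal peptide have also been studied as signals for survival, regrowth and repair of injured neurons.

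The libraries held between 18484557 and 18756736 estimated reads, the deepest 1.47% more than the shallowest, and between 13315 and 13624 genes at an FPKM (fragments per kilobase of transcript, scaled to library size) of at least 1. SNI + G15 replicate 3 stood further from the others of its group than any other library did from its own, so the values without it are given below where they change a result. Of 7 known markers of axon injury (Atf3, Csf1, Ecel1, Gap43, Jun, Sox11 and Sprr1a), all 7 rose in SNI and in SNI + G15 against sham (Sprr1a reached the filter on low values only in injured libraries), and 0 of 7 passed the test between the injured groups. The summed FPKM of 10 sensory neuron markers lay between 10095 and 10757 over the 9 libraries, with none at 0, but in SNI against sham 6 of the 10 fell and 2 rose (Tubb3 and Prph), with a median log2 fold change of -0.41. Of 8 macrophage markers 7 rose in SNI, and their sum went from between 122 and 132 FPKM in sham to between 276 and 295 in SNI and between 296 and 324 in SNI + G15. All 5 erythroid markers rose in SNI, with a sum of between 440 and 518 FPKM in sham, 1394 and 1436 in SNI and 834 and 987 in SNI + G15. Of 6 T cell markers 4 rose in SNI. Their sum went from between 15.7 and 16.7 FPKM in sham to between 32.3 and 33.1 in SNI and between 33.2 and 34.8 in SNI + G15. In SNI + G15 against sham, however, only 2 of the 6 passed as higher, with a median log2 fold change of -0.0023, so this sum does not describe the whole list. Of 8 markers of Schwann and satellite glia 4 fell and 2 rose in SNI, and their sum went from at least 5142 FPKM in sham to at most 3220 in SNI and 3471 in SNI + G15. The part of these shifts in the peptide values was not tested.

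In the sham ganglia, Adcyap1 and Crh were the most abundant of the 7 transcripts. Adcyap1 averaged 29.4 ± 1.27 FPKM (SD, n = 3) and Crh 13.6 ± 1.01 (SD, n = 3), which made up 46.8% and 21.5% of the summed FPKM of the 7 genes. Gal followed at 9.44 ± 1.10 (SD, n = 3) and Npy at 7.05 ± 3.37 (SD, n = 3), and their replicates overlapped, so that the order of this pair is not resolved. Cck and Nts lay between 1.25 and 2.37 FPKM, also with overlapping replicates, and Vip was listed at 0 in each of the 3 sham libraries. At these depths a count of 0 allows up to 3 reads per library.

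After injury this order was replaced by another. Npy went from rank 8103 of 20194 genes by mean FPKM in sham to rank 61 in SNI, Gal from 7006 to 284, and Adcyap1 from 3043 to 612. The summed FPKM of the 7 transcripts was 63.1 ± 4.25 (SD, n = 3) in sham. It reached 1152 ± 17.3 (SD, n = 3) after SNI, and 1216 ± 65.8 (SD, n = 3) with G15. Npy made up 61.7% of the sum in SNI, Gal 22.6% and Adcyap1 11.6%, and Crh 0.707%. For scale, the 6 constitutive nociceptor peptide genes (Calca, Calcb, Nmb, Nppb, Sst and Tac1) summed to 1119 ± 49.6 FPKM (SD, n = 3) in sham. Their sum was 1049 ± 36.8 (SD, n = 3) after SNI and 1191 ± 77.3 (SD, n = 3) with G15, so it too was higher with G15 than in SNI. In SNI none of the 7 genes overlapped with its neighbour in the order Npy, Gal, Adcyap1, Vip, Cck, Crh and Nts.

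**Figure D1:**
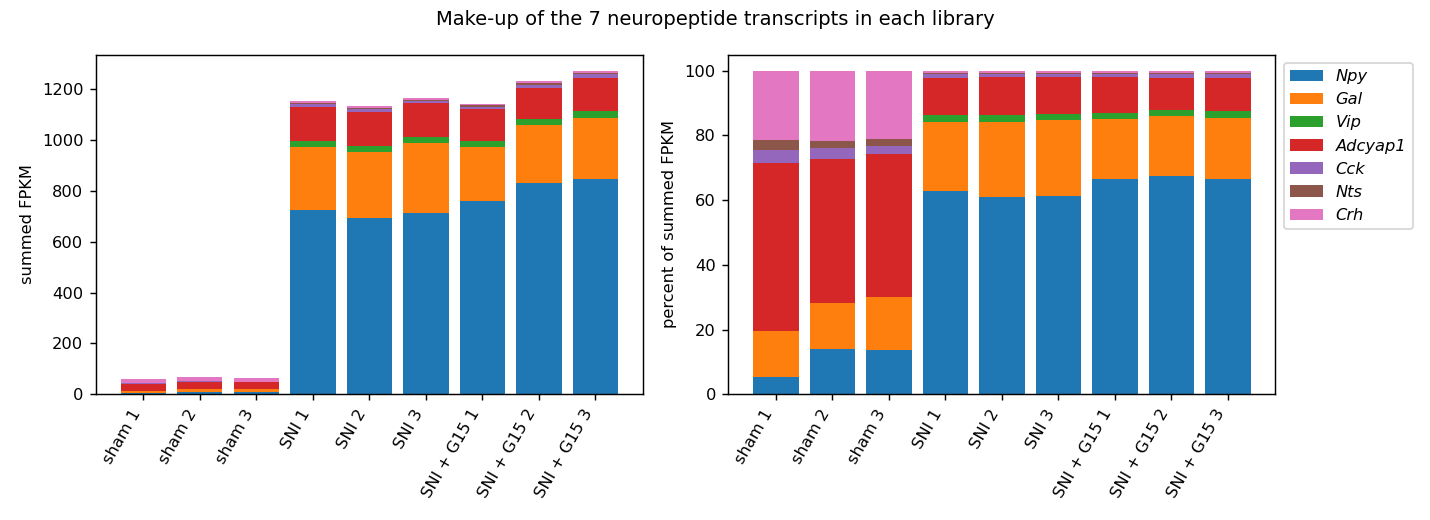
Summed FPKM of the 7 neuropeptide transcripts in each of the 9 libraries (left) and the same as percent of the sum (right), with 1 bar per library and 1 colour per gene. The sham bars sum to between 58.6 and 67.1 FPKM and are led by Adcyap1; the injured bars sum to between 1133 and 1273 FPKM and are led by Npy.

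In SNI against sham, all 7 genes passed edgeR's quasi-likelihood test at an adjusted p below 0.05, 6 higher and 1 lower. Over all 14305 genes tested, 45.7% passed in either direction, 23.3% higher and 22.4% lower, so a pass by itself is common in this comparison. Passing with a rise of at least 1 on the log2 scale was found for 6 of the 7 genes, against 4.07% of the genes tested. Vip, 1 of these 6, reached the filter on low values only in injured libraries. The 7 genes were chosen with earlier results of these data known. Their values set beside those of all genes therefore describe the set and do not test it. As TMM-scaled CPM (counts scaled to library size), the sham and SNI libraries were fully apart for 7 of the 7 genes, and so they were for 55.3% of the genes tested. The median log2 fold change was 2.47 for the 7 genes, also with Vip at its lower bound, and 0.0010 for all genes tested. Crh, the 1 gene that fell, goes against the name of injury-induced neuropeptides under which these genes are grouped.

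**Figure D2:**
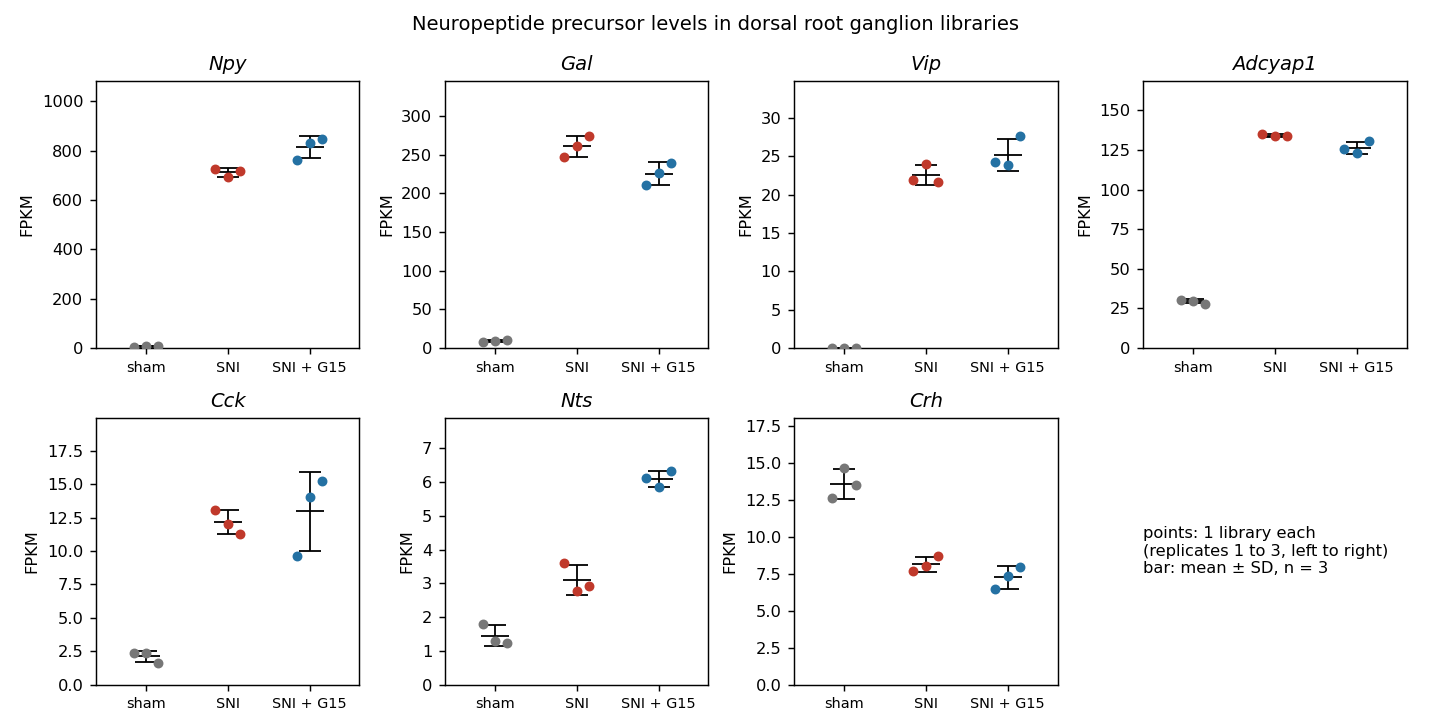
FPKM of each of the 7 neuropeptide genes by group, on a linear axis from 0 that differs between panels; each point is a library and the bars give the mean ± SD of 3 libraries. In 6 panels every injured library lies above every sham library, and in the panel of Crh every injured library lies below; Nts steps up again between SNI and SNI + G15.

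Npy, whose peptide acts through Y receptors and is known in the sympathetic system and as a peptide of injured large sensory neurons, showed the largest rise for which a fold change could be given. It had 3.18, 9.33 and 8.65 FPKM in the sham libraries, 726, 692 and 715 in SNI and 762, 832 and 846 in SNI + G15. The injured libraries were far above the sham libraries, which differed 2.93-fold among themselves because replicate 1 was low. The fold change in SNI against sham was 98.3 (95% interval 77.2 to 125), a log2 fold change of 6.62 (SE 0.16, adjusted p = 3.28e-10). Without sham replicate 1 it was 6.27. Among genes that passed the test, 19 besides Vip had a larger log2 rise than Npy. The estimated counts of Npy were not whole in 5 of the 9 libraries, which can occur where reads are shared between similar sequences. Sympathetic neurons also make Npy. Their 6 measured markers summed to between 10.1 and 10.9 FPKM in sham and to between 8.11 and 8.53 in SNI, most of it from Slc18a2 (8.68 to 9.22 and then 7.37 to 7.59). Of the 6, only Slc18a2 and Th passed the filter, and both fell in SNI, Th from between 1.16 and 1.46 to between 0.49 and 0.77 FPKM. Th reached the filter only in sham libraries, where it is high. The others stayed at or below 0.29 FPKM in all libraries: Dbh was listed at 0 in all but sham replicate 3, and Phox2a had 0 to 0.10 FPKM in sham and 0.07 to 0.20 in SNI. The part of sympathetic neurons in the Npy values was not tested.

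Gal, the precursor of galanin, a peptide with receptors on sensory and spinal neurons, had 8.26, 9.62 and 10.4 FPKM in sham, 247, 261 and 274 in SNI and 210, 226 and 240 in SNI + G15. Every injured library was far above every sham library, and the injured groups did not overlap either. The log2 fold change in SNI against sham was 4.76 (SE 0.076, adjusted p = 4.13e-11), a 27.0-fold rise (95% interval 24.1 to 30.4). Its p was the second smallest of all genes tested.

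Vip, which encodes vasoactive intestinal peptide, was listed at 0 in sham replicates 1, 2 and 3, and at 21.9, 24.1 and 21.6 FPKM in SNI, from 612, 672 and 602 reads. SNI + G15 had 24.2, 23.8 and 27.6 FPKM, from 675, 661 and 778 reads. The transcript went from undetected to a level above 80.7% of all genes. With a floor of 3 counts in each sham library, Vip was at least 208-fold higher in SNI and at least 234-fold higher in SNI + G15 (adjusted p = 1.73e-09 and 3.34e-08). Vip passed the filter on low values only through the injured groups. Of its 3 annotated transcripts, NM_053991.1 carried between 94.0% and 95.8% of the gene's FPKM in SNI.

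Adcyap1 encodes PACAP, a relative of vasoactive intestinal peptide that shares receptors with it. Unlike Vip, it was well expressed before injury, with 30.4, 29.9 and 28.0 FPKM in sham. SNI had 135, 134 and 134 FPKM and SNI + G15 126, 123 and 131. The highest SNI replicate of Adcyap1 was 1.01 times the lowest, the smallest spread of the 7 genes in that group, and the injured and sham libraries were far apart. The fold change in SNI against sham was 4.36 (95% interval 4.11 to 4.63), a log2 fold change of 2.12 (SE 0.039, adjusted p = 7.18e-11). Among its 4 annotated transcripts, NM_016989.2 carried on average 46.1% of the gene in sham and 49.4% in SNI, and XM_006245672.3 carried 45.4% and 41.0%, so both main transcripts rose.

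Cck, the precursor of cholecystokinin, a peptide known to oppose opioid analgesia, had 2.37, 2.37 and 1.66 FPKM in sham, 13.1, 12.0 and 11.3 in SNI and 9.63, 14.0 and 15.2 in SNI + G15. The injured libraries were all above the sham libraries, and those of SNI + G15 spread most (1.58-fold). The log2 fold change in SNI against sham was 2.47 (SE 0.16, adjusted p = 6.75e-07), a 5.53-fold rise (95% interval 4.32 to 7.07).

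Nts, the precursor of neurotensin, was the least abundant of the 7 genes after injury. It had 26, 19 and 18 reads in sham, 52, 40 and 42 in SNI and 88, 84 and 92 in SNI + G15, which gave 1.81, 1.31 and 1.25, then 3.61, 2.77 and 2.92, and then 6.12, 5.86 and 6.32 FPKM. The 3 groups formed 3 separate steps. The log2 fold change in SNI against sham was 1.05 (SE 0.24, adjusted p = 0.0051), a 2.08-fold rise with a wide interval at these counts (95% interval 1.43 to 3.02).

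Crh, which encodes corticotropin-releasing hormone, the hypothalamic peptide that starts the stress hormone axis, moved the other way. It had 12.6, 14.6 and 13.5 FPKM in sham, 7.70, 8.04 and 8.68 in SNI and 6.44, 7.33 and 7.98 in SNI + G15. Both injured groups lay below every sham library. Crh fell by 0.77 on the log2 scale in SNI (SE 0.083, adjusted p = 2.89e-05), which is 41.2% lower than sham, and its estimated counts were whole in all libraries.

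The 250 bases before the annotated start were read for the 5 genes with an entry in the RefSeq promoter table (build GRCr8). All 5 rose after injury. Capitals mark the stem TGACG of the cyclic AMP response element (CRE), read as CGTCA on the opposite strand, and the AP-1 motif TGANTCA. CREB family and AP-1 factors are the proteins known to bind these elements.
Gal (chr1:210084573-210084822, minus strand): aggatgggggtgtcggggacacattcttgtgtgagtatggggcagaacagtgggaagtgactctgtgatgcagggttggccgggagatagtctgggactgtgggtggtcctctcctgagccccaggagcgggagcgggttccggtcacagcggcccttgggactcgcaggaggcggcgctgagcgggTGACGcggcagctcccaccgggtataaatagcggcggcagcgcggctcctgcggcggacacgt
Vip (chr1:44470230-44470479, plus strand): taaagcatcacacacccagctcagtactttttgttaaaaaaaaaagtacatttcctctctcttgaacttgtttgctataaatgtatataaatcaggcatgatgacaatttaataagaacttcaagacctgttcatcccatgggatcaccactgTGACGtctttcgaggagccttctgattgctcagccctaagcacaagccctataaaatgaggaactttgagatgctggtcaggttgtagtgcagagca
Nts (chr7:39460889-39461138, minus strand): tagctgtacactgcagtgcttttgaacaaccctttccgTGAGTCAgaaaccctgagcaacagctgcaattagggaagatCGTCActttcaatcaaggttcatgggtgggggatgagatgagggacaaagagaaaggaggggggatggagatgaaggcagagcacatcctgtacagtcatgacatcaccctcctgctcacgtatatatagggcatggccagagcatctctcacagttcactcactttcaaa
Npy (chr4:80211861-80212110, plus strand): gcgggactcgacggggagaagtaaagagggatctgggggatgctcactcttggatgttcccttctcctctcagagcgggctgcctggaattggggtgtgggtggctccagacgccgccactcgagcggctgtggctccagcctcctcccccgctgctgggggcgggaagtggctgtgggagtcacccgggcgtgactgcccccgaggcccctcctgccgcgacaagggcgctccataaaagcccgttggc
Adcyap1 (chr9:120556474-120556723, minus strand): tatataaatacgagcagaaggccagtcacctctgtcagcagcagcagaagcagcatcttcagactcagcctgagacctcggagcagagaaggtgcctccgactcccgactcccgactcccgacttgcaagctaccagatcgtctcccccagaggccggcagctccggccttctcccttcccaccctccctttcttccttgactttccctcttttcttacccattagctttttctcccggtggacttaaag

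Both strands were searched, and the stem TGACG is contained in the full CRE. The stem was found in Gal from 63 to 59 bases before the start, in Vip from 97 to 93, and in Nts on the opposite strand from 171 to 167. Among 33469 windows of the same length in the table, 18.2% held it. The full CRE TGACGTCA was in none of the 5 windows and in 1.59% of all. The AP-1 motif was found in Nts, as TGAGTCA, from 212 to 206 bases before the start, and in 6.34% of all windows. The windows of Npy and Adcyap1, which rose by 6.62 and 2.12 on the log2 scale, held none of these letters. A match is a string of letters, and binding was not measured. Of the 12 tested AP-1 and CREB family genes, 10 rose in SNI against sham and 0 fell, with a median log2 fold change of 1.01 (0.0010 over all genes tested). They included Atf3 (5.13, from estimated counts that were not whole in 9 libraries), Jun (1.73), Fos (2.04) and Junb (1.03). The part of these factors in the changes of the 7 genes was not tested.

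In SNI + G15 against SNI, 2 of the 7 genes passed the test, Nts and Npy, both higher. Over all genes tested 15.2% (2179 genes) passed, 7.98% higher and 7.25% lower. Both counts turned on single libraries: without one library the 7 genes gave 1 to 3 calls, and all genes gave 893, 925 and 1098 calls without SNI replicate 3, 2 and 1. As TMM-scaled CPM, the SNI and SNI + G15 libraries were fully apart for 4 of the 7 genes (Gal, Npy, Vip and Nts), against 38.9% of the genes tested. On the FPKM scale the libraries of Vip overlapped, and those of Adcyap1 did not. The median log2 fold change was 0.11 for the 7 genes and 0.0063 for all genes tested.

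Nts rose by 0.99 on the log2 scale in SNI + G15 (SE 0.16, adjusted p = 0.0043), a 1.98-fold difference (95% interval 1.55 to 2.54). It was higher in 3 of 3 libraries. The call held in all 15 alternative fits, with log2 fold changes between 0.80 and 1.11 and adjusted p between 0.0014 and 0.0227. Npy was higher by 0.21 on the log2 scale (SE 0.051, adjusted p = 0.0273), a 1.16-fold difference (95% interval 1.07 to 1.25). The call for Npy was lost without SNI replicate 1, 2 or 3 or SNI + G15 replicate 2 (adjusted p = 0.0687, 0.114, 0.0947 and 0.0725) and with all 9 libraries in one fit (0.221).

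The other 5 genes did not pass. Gal was lower in SNI + G15 in every library, at 210 to 240 against 247 to 274 FPKM, with a log2 fold change of -0.20 (95% interval -0.34 to -0.06, adjusted p = 0.0625). It passed without SNI + G15 replicate 3 (-0.25, adjusted p = 0.0100), with DESeq2 (-0.20, adjusted p = 0.0247) and with total counts as the only scaling (-0.21, adjusted p = 0.0456). The interval was 0.01 to 0.35 for Vip (adjusted p = 0.142), -0.16 to 0.08 for Adcyap1 (adjusted p = 0.627), -0.38 to 0.08 for Crh (adjusted p = 0.333) and -0.26 to 0.48 for Cck (adjusted p = 0.673). Without SNI + G15 replicate 3 the value of Cck was -0.03 in place of 0.11. The changes in SNI against sham were 4.76 for Gal, 2.12 for Adcyap1, 2.47 for Cck and -0.77 for Crh. The intervals of Gal, Adcyap1 and Cck reached to -0.34, -0.16 and 0.48, and that of Crh to -0.38, a larger part of its injury change.

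**Figure D3:**
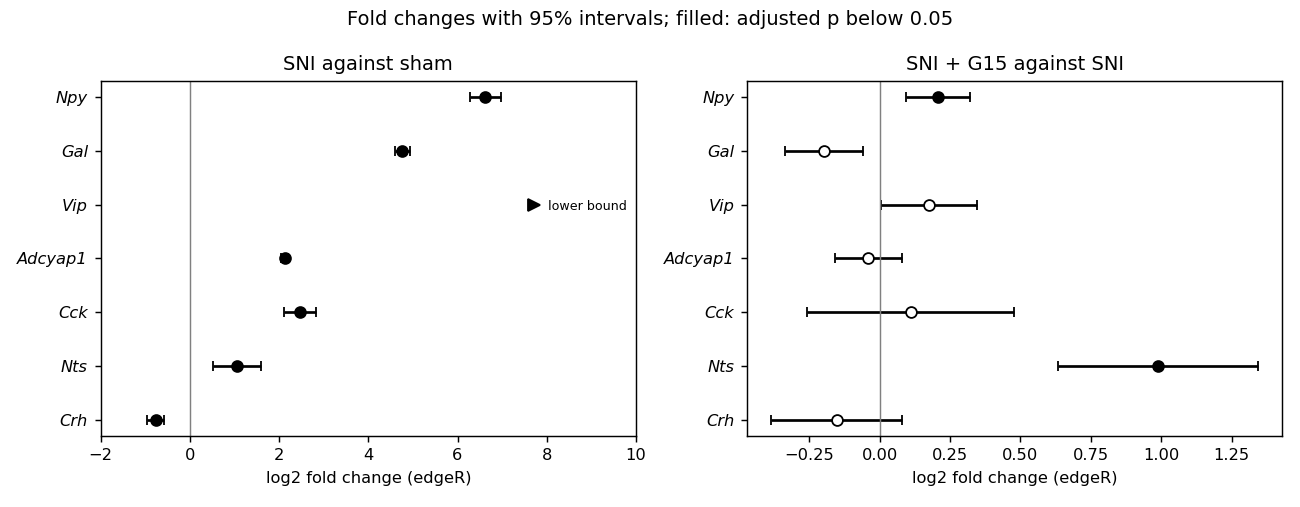
Log2 fold changes of the 7 genes from edgeR, for SNI against sham (left) and SNI + G15 against SNI (right), on axes of different length. The 95% intervals were derived from edgeR's F statistic. Filled circles passed at an adjusted p below 0.05 and the triangle for Vip is a lower bound. On the left 6 genes lie above 1 and Crh lies at -0.77, and on the right Nts lies near 1 and the other genes between -0.20 and 0.21.

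In SNI + G15 against sham, which shares its sham libraries with the first comparison, all 7 genes passed again, 6 higher and 1 lower (43.2% of all genes in either direction, 21.4% higher and 21.9% lower), and 7 of the 7 did not overlap (53.9% of all genes). The log2 fold changes were 4.54 for Gal, 6.80 for Npy, 2.06 for Adcyap1, 2.55 for Cck, 2.02 for Nts and -0.94 for Crh. For Nts the fold was 4.06 (95% interval 3.01 to 5.46, adjusted p = 2.26e-05), against 2.08 in SNI.

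The receptors of the 7 peptides did not move as the precursors did. Of 18 receptor and binding protein genes, 13 passed the filter. In SNI against sham 5 rose, 5 fell and 3 did not pass, with a median log2 fold change of -0.11 (0.0010 over all genes tested). Cckbr, the cholecystokinin B receptor, had 0.28, 0.25 and 0.18 FPKM in sham and 5.66, 5.25 and 5.07 in SNI. From 11, 10 and 7 reads in sham it rose 22.0-fold (95% interval 17.2 to 28.3, adjusted p = 7.92e-09). That interval may be too narrow at so few sham reads. Cckbr reached the filter on low values only in injured libraries, where it is high. Cckar, the A receptor, rose 1.90-fold from between 3.05 and 3.56 FPKM (adjusted p = 6.26e-05). It lay between 6.32 and 7.14 FPKM in SNI and lower, between 4.48 and 5.29, in SNI + G15, a difference that did not pass the test. Npy2r, the Y2 receptor, rose 2.20-fold (adjusted p = 3.88e-07), while Npy1r, the most abundant Y receptor at between 15.0 and 16.2 FPKM in sham, did not pass (log2 fold change -0.11, adjusted p = 0.193).

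Galr2, a galanin receptor, rose by 0.41 on the log2 scale (adjusted p = 0.0038), with counts that were not whole in 9 libraries. Ntsr1, the high-affinity neurotensin receptor, fell by 0.68 (adjusted p = 8.02e-05) while Nts rose. The other receptor genes that passed were Vipr2 (0.38), Adcyap1r1 (-0.39), Crhr2 (-0.71), Npy5r (-0.51) and Sort1 (-0.15), and each lost its call in at least 1 alternative fit. Those lost without a library were Adcyap1r1 (sham replicate 1 or 3 or SNI replicate 1), Crhr2 (sham replicate 3 or SNI replicate 2), Sort1 (sham replicate 1 or 3 or SNI replicate 1 or 2) and Npy5r (any sham replicate or SNI replicate 1 or 2), with adjusted p up to 0.0894, 0.104, 0.127 and 0.132. Galr3, Npy4r, Vipr1, Crhr1 and Crhbp stayed below an FPKM of 1 in all libraries. In SNI + G15 against SNI, Galr2 alone of the 13 passed (0.40, adjusted p = 0.0132), and its call was lost without SNI replicate 1 or 2 (adjusted p = 0.0546 and 0.0627).

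The closest relatives of Crh moved against it. Ucn and Ucn2 encode urocortin and urocortin 2, which act on the receptors of corticotropin-releasing hormone. Ucn had 3, 5 and 3 reads in sham, 138, 93 and 104 in SNI and 98, 132 and 134 in SNI + G15. In SNI against sham its reads, 335 against 11 in all, stood in a ratio of 30.5 after scaling to library size. The 95% exact binomial interval was 16.8 to 61.6 (counting error only), and edgeR gave an adjusted p of 3.55e-07. Between the injured groups the log2 fold change was 0.13 (adjusted p = 0.644).

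Ucn2 had 3, 5 and 1 reads in sham, 28, 42 and 38 in SNI and 145, 127 and 159 in SNI + G15. The 3 groups did not overlap. In SNI against sham its reads, 108 against 9 in all, stood in a ratio of 12.0 after scaling to library size (95% exact binomial interval 6.09 to 26.9, counting error only; adjusted p = 8.14e-05). It rose 4.01-fold in SNI + G15 against SNI (95% interval 3.07 to 5.25, adjusted p = 0.000193), a call kept in all 15 alternative fits. Per length, Ucn stood at between 9.19 and 13.7 FPKM in SNI, above Crh at between 7.70 and 8.68. Among 10 family relatives that were measured, 3 passed the filter, and the third, Sct, did not pass the test in either comparison. Ucn and Ucn2 reached the filter only in injured libraries, where they are high, and their sham counts lay near the floor of 3 reads, so the size of their rises from sham is imprecise and no median of the relatives is given.

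**Figure D4:**
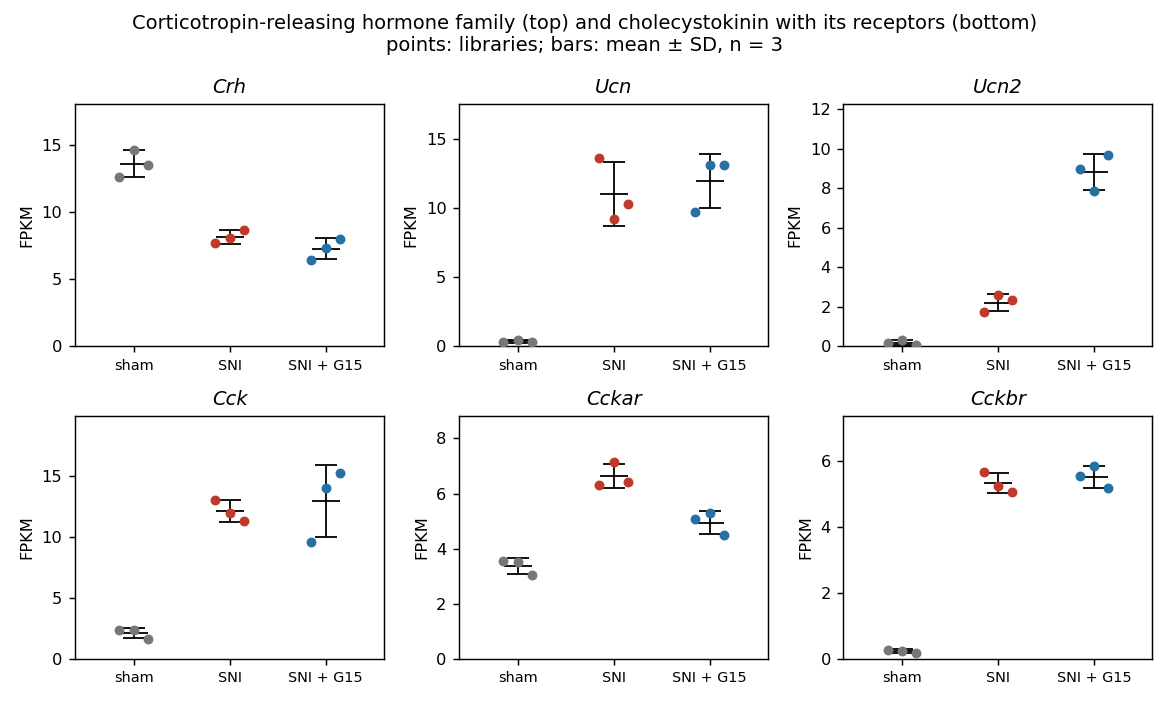
FPKM of Crh, Ucn and Ucn2 (top) and of Cck and its receptor genes Cckar and Cckbr (bottom) by group, on linear axes from 0 that differ between panels; points are libraries and bars the mean ± SD of 3. Crh falls from above 12 FPKM in sham while Ucn and Ucn2 start below 0.5, and Cckbr goes from below 0.3 to above 5 FPKM.

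Among 15 genes for precursor processing and dense-core granules, all tested, 3 rose, 7 fell and 5 did not pass in SNI against sham, with a median log2 fold change of -0.12. Vgf, a granin-like precursor that is itself induced by neurotrophins, rose 5.55-fold, from between 24.4 and 28.6 FPKM to between 141 and 158 (adjusted p = 5.55e-10). Pcsk1, the convertase PC1/3, rose by 0.56 (adjusted p = 3.69e-06) and Pcsk2, the convertase PC2, fell by 0.33 (adjusted p = 0.000107). Chga, chromogranin A, fell by 0.64 (adjusted p = 2.31e-06). The counts of Vgf, Pcsk1 and Chga were not whole in 9 libraries. In SNI + G15 against SNI, 1 of the 15 rose and 4 fell. Vgf rose further by 0.33 (adjusted p = 0.0069) and Pcsk2 fell further by 0.39 (adjusted p = 0.00099), both kept in all 15 alternative fits. Cadps (-0.26), Chgb (-0.26) and Ptprn2 (-0.20) also fell, and each lost its call without SNI replicate 1 or 3. Of 8 peptide-degrading enzymes, 3 rose, 3 fell and 2 did not pass in SNI, with a median of -0.10. They included Nln, neurolysin, a neurotensin-cleaving enzyme, which rose by 0.62 (adjusted p = 7.04e-06; counts not whole in 9 libraries).

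Other neuropeptide genes were set beside the 7. Of the 6 constitutive nociceptor peptide genes, 1 rose (Nppb, 1.35), 3 fell (Nmb, -0.71, Sst, -0.53, and Tac1, -0.22) and Calca and Calcb did not pass in SNI against sham, with a median of -0.10. Among 22 further precursors, 13 passed the filter. Pdyn, prodynorphin, rose by 2.50 from between 0.12 and 0.22 FPKM to between 0.96 and 1.10 (adjusted p = 5.79e-05), and was 1 of 3 in this list that reached the filter only in injured libraries. Cartpt was 2.83-fold lower (adjusted p = 3.69e-06), and Penk, proenkephalin, fell by 1.35 (adjusted p = 6.30e-06) and Iapp by 0.71 (adjusted p = 0.000475), and 9 did not pass. The median of the 13 was -0.26, against 2.47 for the 7 genes.

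**Figure D5:**
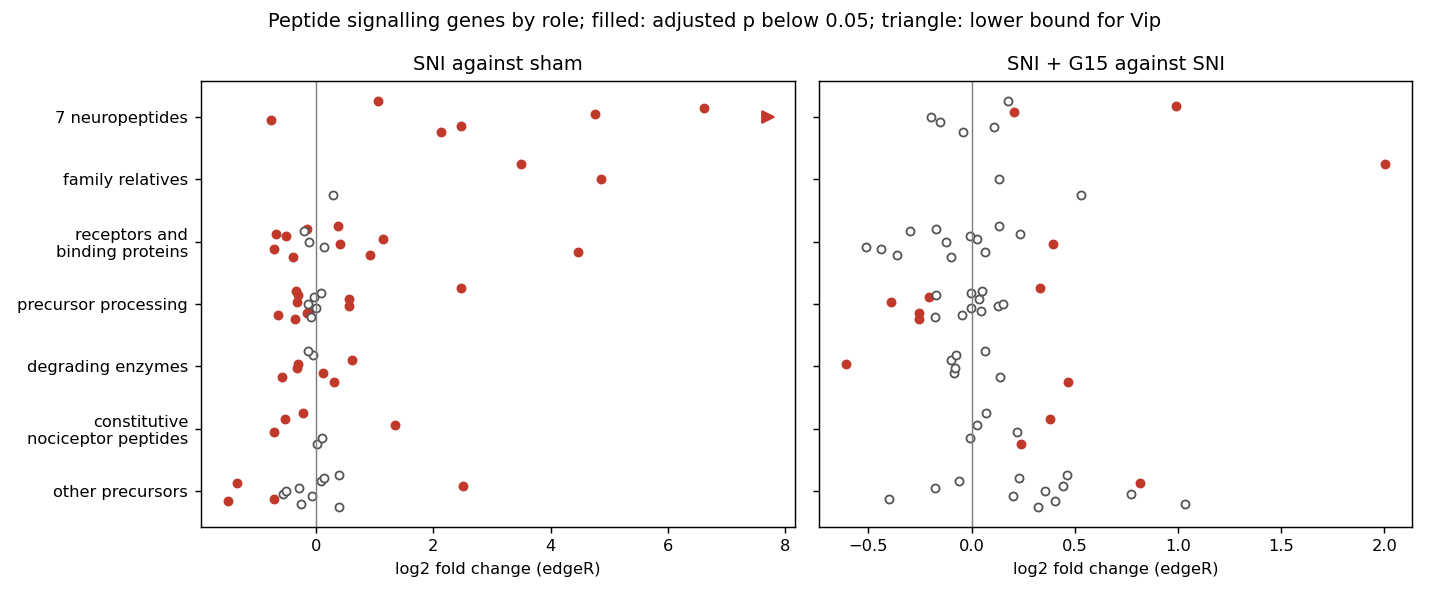
Log2 fold changes of the tested genes by role, for SNI against sham (left) and SNI + G15 against SNI (right); each point is a gene, filled where the adjusted p was below 0.05, and the triangle is the lower bound for Vip. On the left the 7 neuropeptides and Ucn and Ucn2 lie mostly above 1 while the other rows centre near 0, and on the right Ucn2 (2.01) and Nts (0.99) are the filled points farthest to the right.

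Over the 9 libraries, the 6 genes that rose were alike in profile, with Pearson r between 0.80 and 0.998 for their 15 pairs, and Crh ran against them, with r between -0.96 and -0.89 (log2 of CPM plus 1). These values describe the step between sham and injured libraries that the points share. After subtraction of the group means, r lay between -0.65 and 0.80 over all 21 pairs. The genes outside the peptide lists whose profile was most like the mean of the 7 were C1qa, Coq8b, C1qb, Gap43 and Pdlim1, with r from 0.998 to 0.999 over the 9 libraries. C1qa and C1qb encode complement chains made by macrophages, and Gap43 a growth cone protein. Such likeness was common, since 760 of 14298 genes had an r of at least 0.95.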

How the data were processed

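Of 9 rat DRG libraries, the authors deposited FPKM, which they scaled by transcript length and library size, for genes and transcripts. They also deposited estimated counts, which were taken here as carrying no normalization. From 70.9% to 72.0% of the counts in a library were whole numbers. The aligner is not given in the sources used here. The submitters' processing notes name the mouse builds GRCm38 and mm10, although the gene IDs are rat NCBI IDs, of which 18599 of 20194 matched RefSeq (GRCr8). The labels' extraction protocol names macrophages, but the tissue label names DRG. Control columns were assigned to sham by elimination. The study's sources do not settle whether a library is 1 rat or a pool, so p-values measure only the spread between these libraries.

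Counts were rounded to whole numbers. A gene was tested if its FPKM reached 1 in any library, which left 14305. The test was the quasi-likelihood test of edgeR 4.0.16 with TMM scaling (R 4.3.3), and only the compared groups entered each fit. Passing means a Benjamini-Hochberg adjusted p below 0.05 over all genes tested. The methods of the study name DESeq2, which was an alternative here (1.42.0). Further alternatives were limma-trend 3.58.1 on log2 of FPKM plus 1 or 0.1, other scalings and filters, a joint fit of the 9 libraries, replicate number as a block, and each library left out. Floors cover counting error only. The 7 genes and the lists were chosen with earlier results of these data known. Every one of the 7 was named; of each list, at most the 4 called genes with the smallest adjusted p per direction were named, apart from Vipr2 and Npy5r, which were named after their values were seen. Promoter windows were read from RefSeq, which held 5 of the 7.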

Additional observations from a re-analysis of the deposited data

How the results depend on the processing

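Each comparison was repeated under 15 alternatives, and of 315 values for the 7 genes 304 kept their direction and their side of the threshold; 17 of the 21 results for a gene did so under every alternative. All the exceptions were in SNI + G15 against SNI. There the number of the 7 genes that passed, 2, became 1 with all 9 libraries in one fit and 1 with the replicate block, and lay between 1 and 3 across the fits without one library; the number over all genes, 2179, became 1292 with the block and lay between 893 and 2333 without one library (893, 925 and 1098 without SNI replicate 3, 2 and 1). Gal passed with DESeq2 (-0.20, adjusted p = 0.0247) and with total counts only (-0.21, adjusted p = 0.0456), and ranged from -0.25 to -0.14 without one library. Npy no longer passed with all 9 libraries in one fit (0.21, adjusted p = 0.221) or with the block (0.21, adjusted p = 0.0690), and ranged from 0.17 to 0.26 without one library. Adcyap1 ranged from -0.10 to 0.0025 and Cck from -0.030 to 0.29, which includes a change of sign for Adcyap1 without SNI + G15 replicate 2 and for Cck without SNI + G15 replicate 3. The cause was not tested. In the comparisons with sham, the numbers without one library were 5382 to 6237 of 6537 genes and 5101 to 6015 of 6186. The labels give groups the same replicate numbers, but same-numbered libraries did not deviate together: the 9 correlations ranged from -0.13 to 0.07, with 0 above 0.1, and the block changed no other call of the 7 genes. Among called genes of the other peptide lists, with alternatives added after seeing the data, 40 of 51 kept their call in every fit for SNI against sham and 5 of 16 for SNI + G15 against SNI (Fos, Junb, Pcsk2, Ucn2 and Vgf), and 0 reversed. Depth limits Nts, with 18 to 92 reads, and the sham values of Vip, Ucn and Ucn2.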

Other observations

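The libraries held other shifts between SNI + G15 and SNI that stood beside the differences of the 7 neuropeptide genes. Of the 12 tested AP-1 and CREB family genes, 4 passed, all higher in SNI + G15: Junb by 0.55 on the log2 scale (adjusted p = 0.000336), Fos by 0.52 (adjusted p = 0.0066), Jund by 0.30 (adjusted p = 0.0127) and Crem by 0.28 (adjusted p = 0.0122). The calls of Jund and Crem were lost without SNI replicate 1 or 2, and that of Crem also without replicate 3 (adjusted p up to 0.0633 and 0.0620), and those of Junb and Fos held in every alternative. Of the 6 constitutive nociceptor peptide genes, 2 passed, both higher: Calca by 0.24 and Sst by 0.38. Both calls were lost without SNI replicate 2 or 3 (adjusted p up to 0.108 and 0.0921). Penk rose by 0.82 (adjusted p = 0.0175), with 4.03, 3.48 and 3.21 FPKM in SNI and 5.49, 5.30 and 7.89 in SNI + G15, and did not pass without SNI replicate 2 or 3 (adjusted p = 0.0730 and 0.0764). Mme, neprilysin, fell by 0.61 (adjusted p = 0.0105) and Ace rose by 0.47 (adjusted p = 0.0106), and without SNI replicate 3 neither passed (adjusted p = 0.0571 and 0.0536). Summed fibroblast markers (5 genes) lay between 382 and 384 FPKM in SNI and between 516 and 539 in SNI + G15, and summed erythroid markers (5 genes) between 1394 and 1436 and between 834 and 987. Of 4 tested mast cell markers, 3 rose, each of which reached the filter on low values only in SNI + G15: Cpa3 from 8, 3 and 4 to 29, 26 and 27 reads, Cma1 from 4, 3 and 3 to 31, 20 and 36, and Tpsb2 from 4, 1 and 3 to 22, 19 and 24, while Kit did not pass (-0.05, adjusted p = 0.551). Of 6 T cell markers, Cd3e fell from 23, 32 and 34 to 6, 10 and 11 reads, and Cd4 and Cd8a rose (0.14 and 0.89). The remaining 3 did not pass, and the median log2 fold change of the 6 was -0.58. The part of these in the differences of Nts, Npy and Ucn2 was not tested.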
